A study of Mus musculus with 8 samples.

Results

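The 10 immediate early genes Fos, Fosb, Jun, Junb, Jund, Egr1, Ier2, Ier3, Dusp1 and Btg2 were followed in beta cells in which both alleles of Adar, a gene for an RNA-editing enzyme, were floxed and exposed to Cre, against cells with 1 floxed allele. Members were the rows of the deposited table whose gene name equals one of these symbols, and all 10 were found among 44343 genes. The 4 KO libraries came from MipCreER; Adar floxed/floxed; R26R-EYFP mice and the 4 Het libraries from MipCreER; Adar floxed/+; R26R-EYFP mice. Mice of both genotypes were 1 month old when they received 2 doses of 8 mg tamoxifen. Islets were isolated and dissociated 7 days later, and YFP-positive cells were sorted for total RNA sequencing. MipCreER is a tamoxifen-activated Cre recombinase under an insulin promoter, and R26R-EYFP marks cells in which Cre has acted. Both groups therefore carried the Cre, the reporter and the tamoxifen treatment, and the Het cells keep 1 unfloxed Adar allele. How many animals went into a library is not given in the labels, and p-values here cover the spread between libraries, which may be technical.

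Immediate early genes are transcribed within minutes of a stimulus, without new protein synthesis, mainly through kinases of the MAP kinase family that act on the factors SRF with ELK and CREB. Many of their products are transcription factors. Fos and Jun proteins pair to form AP-1, and other products, such as Dusp1, switch the signal off again. In beta cells glucose and hormones that raise calcium or cyclic AMP induce them, and the enzymatic dissociation of a tissue into single cells is known to induce them as well. Both genotypes went through isolation, dissociation and sorting, and no library of undissociated islets was analysed here. How much of each level arose during dissociation cannot be told apart from the level in the animal.

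Promoter sequences were taken from RefSeq (GRCm38.p6), from 250 bases before to 50 bases after each start, and 8 of the 10 members were matched, all but Egr1 and Ier2. Those of Fosb and Btg2 are shown because their KO and Het values separated after scaling on expressed genes (the values follow). Those of Fos and Dusp1 are shown because 1 KO library stood far above the rest on that scale. The same held for Jun, whose promoter was matched but is not shown. Capitals mark TGACG, the core of the site that CREB and related factors bind, on either strand, and TATAAA.
Fosb: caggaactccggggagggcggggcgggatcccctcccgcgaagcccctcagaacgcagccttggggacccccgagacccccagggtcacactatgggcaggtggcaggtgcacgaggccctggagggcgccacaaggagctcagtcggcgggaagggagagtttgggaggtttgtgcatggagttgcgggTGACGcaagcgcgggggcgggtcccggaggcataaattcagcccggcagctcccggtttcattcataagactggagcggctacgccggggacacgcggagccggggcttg
Btg2: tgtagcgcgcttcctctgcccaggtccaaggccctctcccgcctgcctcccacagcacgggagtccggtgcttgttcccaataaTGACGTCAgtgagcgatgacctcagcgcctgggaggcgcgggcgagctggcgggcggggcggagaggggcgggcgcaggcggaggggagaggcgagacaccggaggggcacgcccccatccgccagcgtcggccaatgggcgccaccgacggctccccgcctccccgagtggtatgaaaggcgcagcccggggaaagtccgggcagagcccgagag
Fos: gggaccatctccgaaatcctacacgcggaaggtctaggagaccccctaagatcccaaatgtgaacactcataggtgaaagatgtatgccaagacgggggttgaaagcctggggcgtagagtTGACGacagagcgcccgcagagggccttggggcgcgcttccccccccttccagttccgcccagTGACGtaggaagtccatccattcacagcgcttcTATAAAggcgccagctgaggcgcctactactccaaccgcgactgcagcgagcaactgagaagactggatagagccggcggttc
Dusp1: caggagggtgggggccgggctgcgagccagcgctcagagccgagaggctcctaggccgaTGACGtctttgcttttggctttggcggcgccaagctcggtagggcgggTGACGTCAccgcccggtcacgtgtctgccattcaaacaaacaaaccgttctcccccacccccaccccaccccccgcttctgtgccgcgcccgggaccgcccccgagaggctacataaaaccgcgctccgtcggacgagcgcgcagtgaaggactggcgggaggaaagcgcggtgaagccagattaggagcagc
The Fosb window is chr7:19309996-19310295 on the minus strand, the Btg2 window chr1:134079106-134079405 on the minus strand, the Fos window chr12:85473640-85473939 on the plus strand and the Dusp1 window chr17:26508423-26508722 on the minus strand.

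TGACG, searched on both strands, was present in the promoters of 5 of 8 members (Fos, Fosb, Junb, Dusp1 and Btg2), against 20.8% of all 32851 promoters of the table. The full palindrome TGACGTCA, which holds TGACG on each strand, was found in 2 of 8, Btg2 at position -166 and Dusp1 at position -143, counted from the RefSeq start to its first base, against 1.79% of all promoters. In Fos, TGACG lay at -129 and -66 and TATAAA at -33, and in Fosb TGACG lay at -60. TATAAA was found in 2 of 8 members, against 13.6% of all promoters. GGGCGG, on both strands, was found in 6 of 8, against 35.7% of all promoters. The CArG box bound by SRF, the AP-1 site TGANTCA and the STAT core TTCNNNGAA were in 0 of 8 windows, on either strand. Of all promoters 1.63%, 7.81% and 8.30% held them, and 0 of 8 says only that these letters are not in these windows. The 8 windows had between 46.7% and 72.0% G and C, against a median of 52.7% over all promoters. The RefSeq start of Jund lies 1210 bases from the GENCODE M21 start of the gene, and the GENCODE gene model of Dusp1 starts at 26562128 where RefSeq has 26508472, so which start these cells use is not known from these data.

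The libraries differed in overall level within each genotype. Whole reads per library ran from 5370765 in KO 3 to 15883473 in KO 1. As deposited, the 6697 most expressed genes (mean of 200 or more) lay at a median of 0.88, 0.96, -0.77 and -0.56 log2 units from the average library in KO 1, KO 2, KO 3 and KO 4. In the Het libraries that median ran from -0.46 to 0.22. Values are therefore given on 2 scales where the member was tested on both, as the deposited normalized count and after scaling on expressed genes, in which factors from the TMM method (trimmed mean of M-values) over those 6697 genes set the libraries level. Adar itself had 4030, 2365, 615 and 1343 normalized counts in KO 1 to KO 4, against 943, 1173, 1187 and 744 in Het 1 to Het 4, and was not lower in KO (log2 fold change 0.75 ± 0.58, limma adjusted p = 0.910). Which exons are floxed is not given in the labels, and a count over the whole gene includes the exons that remain, so it does not check the genotype, which rests on the labels. The Y-linked gene Ddx3y was at 1.10 normalized counts in KO 3 and 0 in KO 4, which allows up to 3 reads, against 812 and 1285 in KO 1 and KO 2 and 198 to 696 in the Het libraries. Xist was at 2343 to 7207 in the KO libraries and 4103 to 6425 in the Het libraries other than Het 1, where it was at 19.2. Reads of a Y-linked gene were thus at or near 0 in KO 3 and KO 4, and Xist was near 0 in Het 1. Both genes were well above 0 in KO 1, KO 2, Het 2, Het 3 and Het 4. KO 3 and KO 4 were also the KO libraries with low deposited levels, so these differences between KO libraries cannot be told apart. The part of sex in the results was not tested. The beta-cell markers (9 genes, Ins1 and Ins2 among them) summed to 520725, 1363377, 632618 and 225364 normalized counts in KO 1 to KO 4. In the Het libraries they ran from 625845 to 1287966, so beta-cell markers were abundant in every library, and KO 4 held the least on this scale. With expressed genes set level, KO 4 held 334081 and KO 1 the least, 284154, against 826076 to 1101564 in Het. Ins1, Ins2 and Iapp made up most of each sum. As deposited, KO 4 was below every Het library for these genes and for Slc2a2 and Ucn3. It lay within the Het range for Mafa (2420, against 1952 to 3285), Nkx6-1 (1764, against 1535 to 2447), Pdx1 and G6pc2.

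Of the immediate early genes, 9 of 10 had a positive limma log2 fold change under the deposited scaling, against 54.3% of all tested genes. The exception, Jund, averaged 6313 normalized counts in KO and 6163 in Het. However, limma under the deposited scaling called no member, and DESeq2, whose size factors equal the deposited ones, called 2. The counts of all 10 in each library are shown in the plot of deposited normalized counts. Among the 21498 genes averaging 10 or more, limma called 0.921% higher and 0.0233% lower in KO at an adjusted p under 0.05, and 0 of 10 members. Unadjusted p-values under 0.05 were found for 3 members higher and 0 lower, against 4.05% and 2.7% of all tested genes. On whole reads edgeR called 0 members, against 0.673% of its 23320 tested genes higher and 0.0343% lower. It gave 7 members an unadjusted p under 0.05, all higher, against 4.75% of those genes. DESeq2 called 2 higher, Egr1 (adjusted p = 0.017) and Btg2 (adjusted p = 0.030). Of the 16822 genes with an adjusted p, DESeq2 called 1.25% higher and 0.0178% lower. It gave 8 members an unadjusted p under 0.05, all higher. Over all 44343 genes, those of low counts included, the shares at that p were 3.65% higher and 0.974% lower. The median log2 fold change of the members was 1.02 (limma, deposited scaling), beside 0.05 over all tested genes. Scaled on expressed genes, 9 members were tested, all but Ier3, which is below the mean of 200. There 1 was called higher, Btg2, and 0 lower, against 6.03% and 4.24% of the 6697 genes, so the members' count of calls was near the share of all genes. In that setting 5 members had an unadjusted p under 0.05, against 15.6% of genes that were higher at that limit. Of the 9, 8 had a positive log2 fold change, against 49.8% of genes, and the members' median was 0.86, beside -0.0024 over all 6697 genes.

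**Figure D1:**
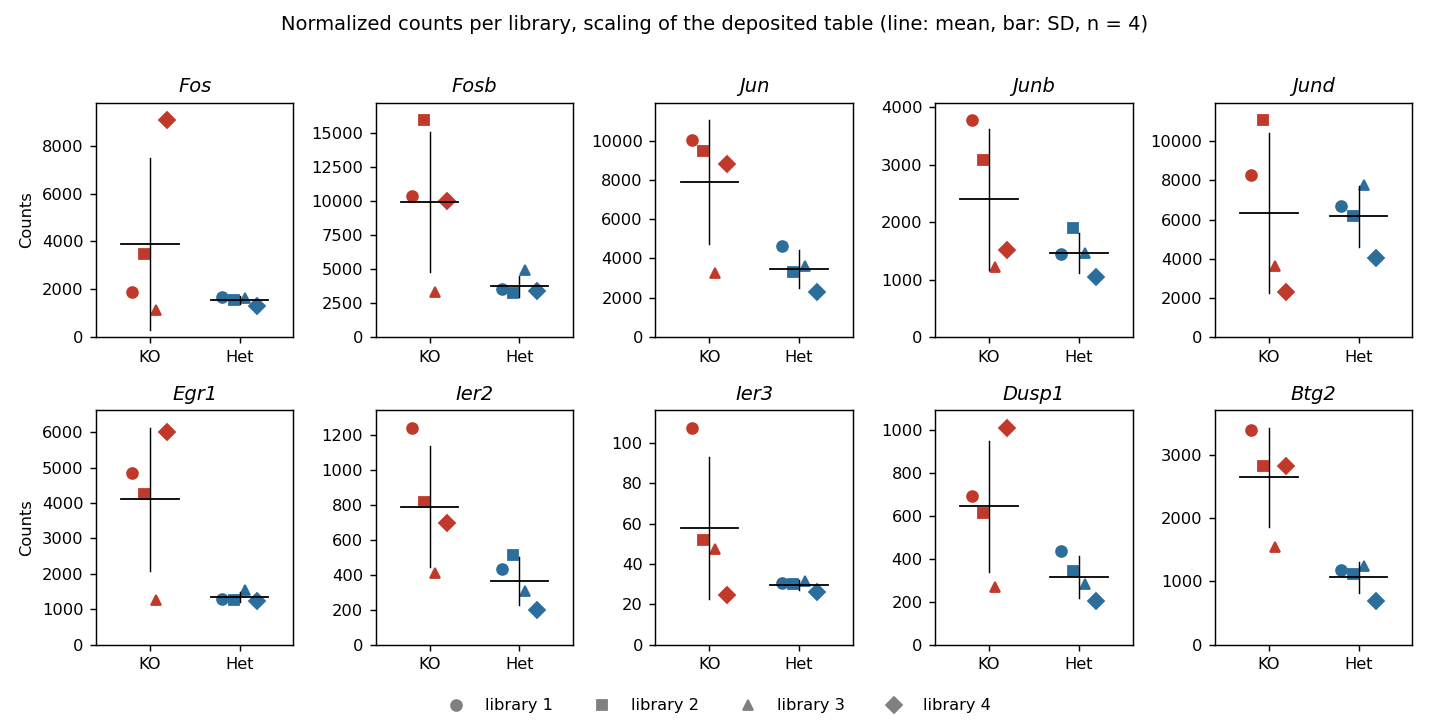
Deposited normalized counts of the 10 immediate early genes (vertical axis, linear from 0) in each library, with 1 panel per gene, KO left of Het, a marker shape per replicate number, the group mean as a line and the SD as a bar (n = 4 each). Btg2 is the one gene whose KO and Het values do not overlap, and KO 3 is the lowest KO library for most of the genes, Jund and Ier3 excepted.

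Levels per length put Jund first in the Het mean, while in KO Jund and Jun differed by less than the SD of Jund, and in KO 4 Jund was below Fos, Jun and Fosb. Per kilobase of annotated exon, Jund averaged 3785 ± 2451 normalized counts in KO and 3695 ± 935 in Het (SD, n = 4 each, deposited scaling), and Jun 2479 ± 986 in KO and 1090 ± 302 in Het. Fos, Fosb and Junb followed at 655 ± 72.8, 601 ± 124 and 636 ± 153 in Het, which do not differ beyond their spread. In KO these 3 were at 1655 ± 1524, 1591 ± 830 and 1044 ± 534. Btg2 was at 963 ± 286 in KO and 386 ± 91.7 in Het, and Egr1 at 914 ± 451 in KO and 297 ± 31.4 in Het. Ier2 was at 520 ± 227 in KO and 239 ± 90.7 in Het, Dusp1 at 195 ± 92.0 in KO and 95.2 ± 29.7 in Het, and Ier3 at 51.1 ± 31.2 in KO and 26.2 ± 2.25 in Het. The whole set was thus detected in Het cells too. In Het, Btg2 and Egr1, and Egr1 and Ier2, differed by less than the larger SD of each pair. In GENCODE M21, Jun, Junb, Jund and Ier2 have 1 exon in their principal transcript. Other genes overlap 4 members on the other strand (Junos at Jun, Prdx2 at Junb, Gm11175 at Jund and Ergic1 at Dusp1), and the strand setting of the counting is not given in the sources used here, so part of those reads could belong to the partner.

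Fos (chromosome 12, 85473890 to 85477273, plus strand, mm10) encodes the partner of Jun proteins in AP-1 and is the fastest of the set to appear and decay. It had 1876, 3476, 1146 and 9068 normalized counts in KO 1 to KO 4, against 1687, 1551, 1625 and 1297 in Het 1 to Het 4. Scaled on expressed genes, it was at 1024, 1790, 1965 and 13442 in KO, against 2004, 1551, 1390 and 1788 in Het. KO 4 alone was high: its scaled value was 6.71 times the highest of the other 7 libraries, while KO 1, KO 2 and KO 3 lay at or below the top of the Het range. The log2 fold change was 0.90 ± 0.61 under the deposited scaling (SE, limma adjusted p = 0.888) and 0.66 ± 0.67 after scaling on expressed genes (adjusted p = 0.530). Without KO 4 it was 0.35 ± 0.63 (adjusted p = 0.804) and -0.12 ± 0.23 (adjusted p = 0.748). By read count Fos ranked 24 among all genes in KO 4, and between 409 and 1469 in the other libraries.

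Fosb (chromosome 7, 19302696 to 19310051, minus strand), a relative of Fos with more lasting products, had a different pattern. It had 10382, 15979, 3318 and 10058 normalized counts in KO 1 to KO 4, against 3540, 3228, 4899 and 3351 in Het 1 to Het 4. On the scale of expressed genes the KO values were 5666, 8228, 5690 and 14910, against 4205, 3226, 4190 and 4619 in Het. There every KO library stood above every Het library, and KO 4 was again the highest. Fosb had a log2 fold change of 1.22 ± 0.66 (limma adjusted p = 0.795) under the deposited scaling and 0.98 ± 0.29 (adjusted p = 0.056) after scaling on expressed genes. The second value was 0.68 ± 0.20 without KO 4 (adjusted p = 0.068) and 1.13 ± 0.30 without KO 3, where it passed the threshold (adjusted p = 0.036).

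Of the Jun genes, which supply the other partner in AP-1, Jun had a positive and Jund a negative log2 fold change in limma on both scales (Jund 0.034 in DESeq2), and neither passed the limma test. For Jun, 3 of 4 KO libraries exceeded every Het library as deposited, and 2 of 4 with expressed genes set level. Jun (chromosome 4, 95049034 to 95052222, minus strand) had 10065, 9479, 3252 and 8832 normalized counts in KO, against 4649, 3304, 3631 and 2315 in Het. With expressed genes set level, Jun was at 5492, 4881, 5576 and 13093 in KO, against 5523, 3302, 3105 and 3192 in Het, and Het 1 lay within the range of KO 1 to KO 3. Its log2 fold change was 1.10 ± 0.66 (limma adjusted p = 0.838) under the deposited scaling and 0.86 ± 0.31 (adjusted p = 0.094) after scaling on expressed genes. Junb (chromosome 8, 84974484 to 84978718), a Jun protein that can restrain Jun, had 3777, 3086, 1224 and 1521 normalized counts in KO, against 1450, 1900, 1471 and 1037 in Het. With expressed genes set level, Junb was at 2061, 1589, 2100 and 2255 in KO, against 1723, 1899, 1258 and 1430 in Het. Its log2 fold changes were 0.59 ± 0.60 and 0.35 ± 0.17 (limma adjusted p = 0.938 and 0.184), and its groups overlapped on both scales.

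Jund (chromosome 8, 70698949 to 70700616, plus strand) encodes the Jun protein that resting cells already hold. It had 8281, 11077, 3617 and 2277 normalized counts in KO, against 6669, 6167, 7767 and 4050 in Het. With expressed genes set level, Jund was at 4519, 5704, 6202 and 3375 in KO, against 7923, 6164, 6643 and 5583 in Het. On that scale KO 4, the library with the most Fos and Jun, held the least Jund. The log2 fold change was -0.19 ± 0.66 (limma adjusted p = 0.983) under the deposited scaling and -0.44 ± 0.22 (adjusted p = 0.194) after scaling on expressed genes. Under the deposited scaling its sign changed without KO 4, to 0.21 ± 0.71 (adjusted p = 0.900).

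The balance between these 5 AP-1 genes does not depend on any scaling factor. As a share of their summed reads per kilobase, Jund made up 40.6%, 44.3%, 45.8% and 13.3% in KO 1 to KO 4, against 54.2%, 54.9%, 58.9% and 51.7% in Het 1 to Het 4. Every KO library was below every Het library. Jun made up 25.8%, 19.8%, 21.5% and 27.0% in KO, against 19.8%, 15.4%, 14.4% and 15.5% in Het, and here every KO value was above every Het value, though KO 2 (19.828%) and Het 1 (19.779%) nearly met. Fos made up 37.6% in KO 4 and 6.53% to 10.3% in KO 1 to KO 3, against 8.74% to 11.8% in Het. Fosb made up 11.2% to 17.1% in KO, against 7.68% to 11.4% in Het, and Junb 6.44% to 13.4% in KO, against 8.08% to 12.3% in Het, with overlap in both. Within a library, the ratio of Fosb to Jund reads was 1.25, 1.44, 0.917 and 4.42 in KO, against 0.531, 0.523, 0.631 and 0.827 in Het. The ratio of Jun to Jund reads was 1.22, 0.856, 0.899 and 3.88 in KO, against 0.697, 0.536, 0.467 and 0.572 in Het. Both ratios separated the groups without overlap, as did those of Egr1 and Btg2 to Jund. The ratios of Fos, Junb, Dusp1 and Ier2 to Jund overlapped, and all of these share Jund as denominator. No share over all genes was computed for such ratios. Of the counts of 6697 genes scaled on expressed genes, 11.7% separated upwards and 10.3% downwards. These shares and ratios were chosen after the values were seen and carry no test.

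**Figure D2:**
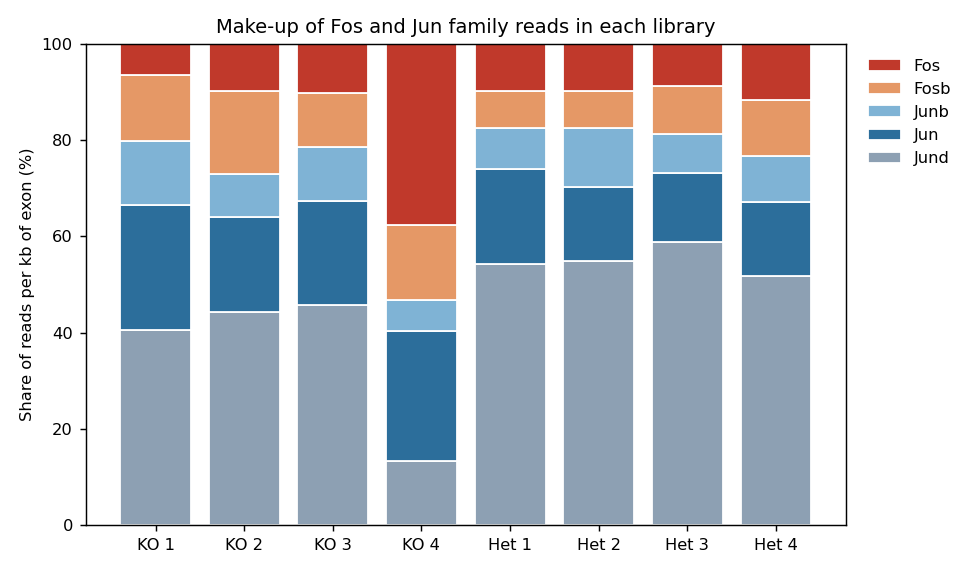
Share of Fos, Fosb, Junb, Jun and Jund in their summed reads per kilobase of exon (vertical axis, percent) in each library, KO libraries left of Het libraries. Jund takes 13.3% to 45.8% in KO and 51.7% to 58.9% in Het, and Fos takes 37.6% in KO 4.

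Egr1 (chromosome 18) is a zinc-finger transcription factor induced through SRF and MAP kinases. Its log2 fold change was the largest of the 10 as deposited and of the 9 tested after scaling on expressed genes. It had 4857, 4253, 1266 and 6015 normalized counts in KO 1 to KO 4, against 1296, 1253, 1538 and 1234 in Het 1 to Het 4, so KO 3 fell among the Het libraries. Scaled on expressed genes, Egr1 was at 2651, 2190, 2171 and 8917 in KO, against 1540, 1252, 1315 and 1701 in Het, with no overlap. Its log2 fold change was 1.42 ± 0.61 (limma adjusted p = 0.541) under the deposited scaling and 1.18 ± 0.39 (adjusted p = 0.077) after scaling on expressed genes. Without KO 4 the second value was smaller but called, at 0.69 ± 0.16 (adjusted p = 0.037). Without KO 2 it was 1.37 ± 0.41 (adjusted p = 0.048). Under the deposited scaling limma called Egr1 without KO 3, at 1.91 ± 0.55 (adjusted p = 0.030), and without no other single library. DESeq2, with all 8 libraries, called Egr1 at 1.62 ± 0.43 (adjusted p = 0.017).

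Btg2 (chromosome 1, 134075170 to 134079120, minus strand) encodes an antiproliferative protein that recruits the CCR4-NOT deadenylase to mRNAs, and it is induced by p53 as well as by growth signals. It had 3387, 2827, 1534 and 2815 normalized counts in KO 1 to KO 4, against 1185, 1116, 1245 and 690 in Het 1 to Het 4. The lowest KO value exceeded the highest Het value, which under the deposited scaling held for 1 of 10 members and for 2.19% of the 21498 genes tested. The opposite held for 0 members and for 0.893% of genes. Scaled on expressed genes, Btg2 was at 1848, 1456, 2631 and 4174 in KO, against 1408, 1116, 1065 and 952 in Het, again without overlap. In that setting 3 of 9 members (Fosb, Egr1 and Btg2) separated upwards, against 11.7% of 6697 genes, and 0 downwards, against 10.3%. The log2 fold change was 1.30 ± 0.59 (limma adjusted p = 0.628) under the deposited scaling. After scaling on expressed genes Btg2 rose by 1.05 ± 0.28 on the log2 scale, a 2.07-fold difference (adjusted p = 0.039), higher in 4 of 4 KO libraries. That call was lost without Het 1, Het 2, Het 3, Het 4, KO 1, KO 3 or KO 4 (highest adjusted p = 0.107, without Het 2) and kept without KO 2 (adjusted p = 0.011).

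Dusp1 (chromosome 17, minus strand), the phosphatase that inactivates MAP kinases, was like Fos in that KO 4 stood far above the other libraries on the scale of expressed genes. It had 690, 612, 266 and 1008 normalized counts in KO 1 to KO 4, against 434, 344, 281 and 202 in Het 1 to Het 4. On the scale of expressed genes Dusp1 was at 377, 315, 456 and 1494 in KO, against 516, 344, 240 and 278 in Het. KO 4 stood at 2.90 times the highest of the other 7 libraries, and the other KO libraries lay inside the Het range. The log2 fold change was 0.93 ± 0.51 (limma adjusted p = 0.803) under the deposited scaling and 0.69 ± 0.45 (adjusted p = 0.327) after scaling on expressed genes, where it was 0.20 ± 0.24 without KO 4 (adjusted p = 0.603).

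Ier2, a small nuclear protein of the serum response, had 1242, 814, 408 and 698 normalized counts in KO, against 436, 511, 308 and 199 in Het. With expressed genes set level, Ier2 was at 678, 419, 700 and 1035 in KO, against 517, 511, 263 and 275 in Het. Its log2 fold changes were 1.10 ± 0.53 under the deposited scaling and 0.86 ± 0.30 after scaling on expressed genes (limma adjusted p = 0.666 and 0.083). The second was called without KO 2 only, at 1.09 ± 0.28 (adjusted p = 0.027). Ier3, a stress-responsive survival protein also induced through NF-kappaB, was the lowest of the set. It had 108, 51.8, 47.4 and 24.4 normalized counts in KO, against 30.7, 30.0, 31.7 and 25.9 in Het. On this scale KO 1 was the highest and KO 4 the lowest of the 8 libraries, and the log2 fold change was 0.76 ± 0.40 (limma adjusted p = 0.771).

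**Figure D3:**
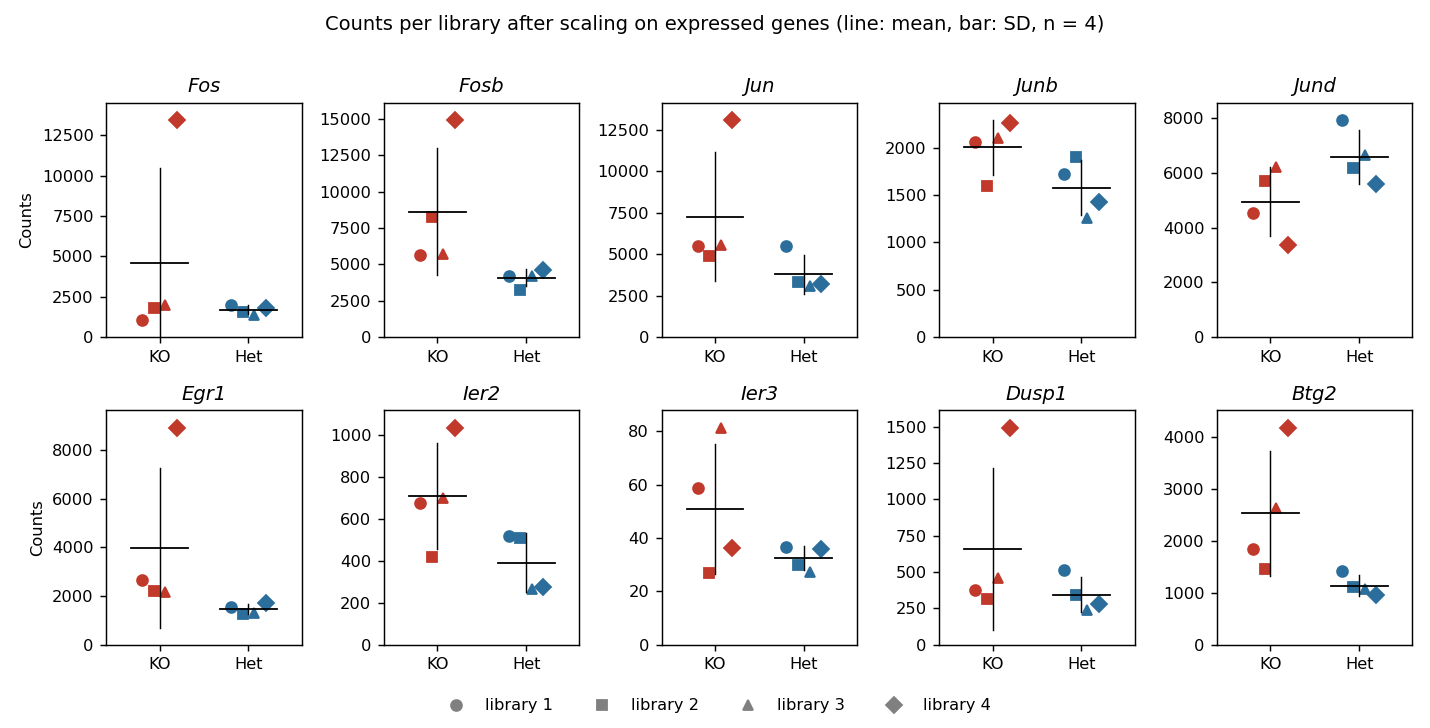
Counts of the 10 immediate early genes after scaling on expressed genes (vertical axis, linear from 0) in each library, KO left of Het, with a marker shape per replicate number, the group mean as a line and the SD as a bar cut off at 0 (n = 4 each). KO 4 (diamond) is the highest library for 8 of the 10 genes and the lowest for Jund.

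**Figure D4:**
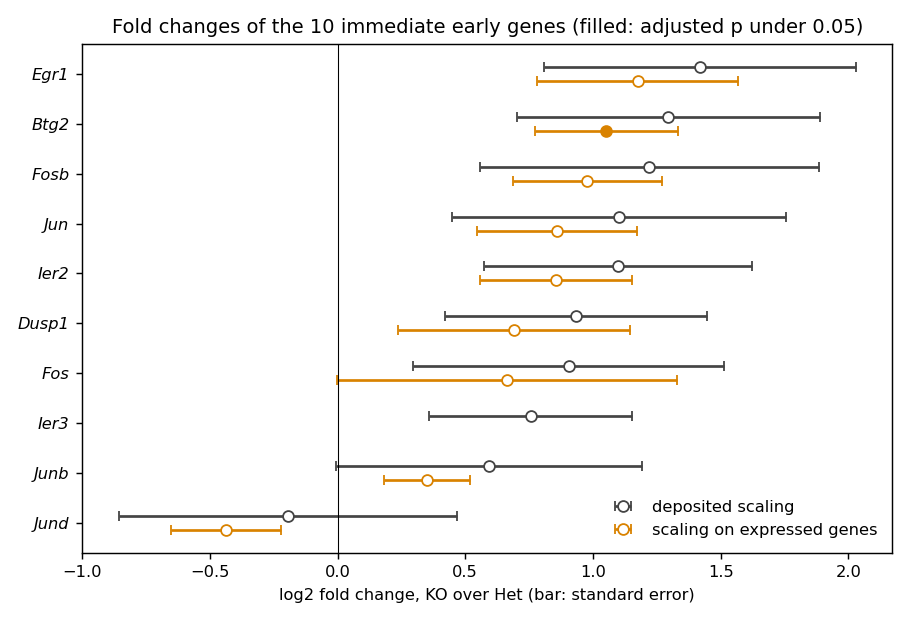
Log2 fold change of KO over Het for each gene (horizontal axis) with its limma standard error, under the deposited scaling (grey) and after scaling on expressed genes (orange, Ier3 not tested). Of the 10 genes, 9 lie right of 0 and Jund left of it, and the filled point marks Btg2, with an adjusted p of 0.039.

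KO 4 was the highest of the 8 libraries for most members on the scale of expressed genes. With expressed genes set level it was the highest KO library for 8 of the 9 tested members, against 25.0% of the 6697 genes, and it lay a median of 1.86 log2 units above the Het mean over the 10 members. The same median was 0.54 in KO 1, 0.14 in KO 2 and 0.55 in KO 3. Of all 6697 genes, 9 (0.134%) were at least 2 times higher in KO 4 than in every other library, and 4 of the 9 were members, namely Fos, Egr1, Dusp1 and Jun. The others were Klf4, an immediate early factor, Rasd1, Inpp4b, Esr1 and Irs2. This limit was chosen after the values were seen. Under the deposited scaling 1 gene of 21498 (0.00465%) passed the same limit, the member Fos, at 9068 in KO 4 against 3476 in KO 2. There KO 4 was the highest KO library for 3 of 10 members, against 13.5% of genes.

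Of 18 other immediate early transcription factors, 15 had a positive log2 fold change as deposited, against 54.3% of all tested genes. KO 4 was the highest KO library for 0 of the 18 on that scale and for 5 of the 12 tested on the scale of expressed genes. Of the 18, limma under the deposited scaling called 0 (unadjusted p under 0.05 for 5, all higher), edgeR 0 (8 higher) and DESeq2 0 (10 higher). The shares of genes higher at that p were 4.05% of 21498, 4.75% of 23320 and 3.65% of 44343, the last with genes of low counts included. Their median log2 fold change was 0.70, beside 0.05 over all genes, and -0.11 without KO 1 and KO 2, the libraries with the highest deposited levels of expressed genes. The 2 of smallest p were Egr3 and Egr4, relatives of Egr1, with 1.40 ± 0.40 and 1.45 ± 0.47 (limma adjusted p = 0.057 and 0.144). Egr3 had 123, 59.5, 24.3 and 38.7 normalized counts in KO, against 14.1, 28.8, 15.4 and 20.3 in Het. On the negative side, Bhlhe40 and Npas4, the second a factor induced by calcium, had -0.16 ± 0.54 and -0.09 ± 0.55. On the scale of expressed genes 3 of 12 tested were called higher, namely Nr4a1, Klf6 and Klf10, and 0 lower, against 6.03% and 4.24% of the 6697 genes. Npas4 was then at 403, 1003, 870 and 779 in KO, against 883, 946, 855 and 962 in Het. KO 1 and KO 4 were thus below all 4 Het libraries, and KO 2 was above them.

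Among 12 AP-1 relatives and partners, Atf3 was the gene that rose. It had 4299, 2919, 1446 and 1881 normalized counts in KO, against 413, 315, 585 and 370 in Het, a log2 fold change of 2.56 ± 0.57 (limma adjusted p = 0.0012), higher in 4 of 4 KO libraries. Atf3 binds AP-1 and CRE sites and is also a target of the ATF4 stress pathway. It was the 1 gene called of 11 tested, and edgeR and DESeq2 called it too. Without Het 2 no gene of any of the 6 lists was called under the deposited scaling, Atf3 included. The median of the list was 0.25. Fosl1, a Fos relative, had 0.63 ± 0.44 (adjusted p = 0.892), while Jdp2 and Fosl2 had -0.41 ± 0.42 and -0.07 ± 0.57.

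Of 31 immediate early genes of signalling and feedback, 28 were tested and limma under the deposited scaling called 0 (unadjusted p under 0.05 for 4, all higher). edgeR called 0 (4 higher and 1 lower at that p) and DESeq2 1, Ppp1r15a. Their median was 0.26. Ppp1r15a, which encodes GADD34, a subunit that directs the dephosphorylation of eIF2alpha, had 13122, 6154, 2238 and 3033 normalized counts in KO, against 1468, 1519, 1843 and 1014 in Het. Its log2 fold change was 1.76 ± 0.62 (limma adjusted p = 0.259) under the deposited scaling and 1.52 ± 0.23 after scaling on expressed genes (adjusted p = 0.0046), where Ppp1r15a and Gem were the 2 of 20 called higher, against 6.03% of all genes. On that scale 10 of the 20 had a positive and 10 a negative log2 fold change, and 2 were lower at an unadjusted p under 0.05. Dusp6, a phosphatase specific for ERK, had 1.15 ± 0.41 (adjusted p = 0.276). Nab2, a corepressor of Egr1, and Trib1, a pseudokinase, had -0.48 ± 0.41 and -0.28 ± 0.60.

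Among 15 genes of the BTG and TOB family and of mRNA decay, limma and edgeR tested 14 and DESeq2 15 (2 without an adjusted p), and each called 0. Unadjusted p-values under 0.05 numbered 0 with limma, 0 with edgeR and 1, higher, with DESeq2. Btg1, the closest relative of Btg2, had 0.78 ± 0.58 (limma adjusted p = 0.903) and rose by 0.54 ± 0.12 after scaling on expressed genes (adjusted p = 0.022), the 1 of 13 called there, near the 6.03% of all genes called higher. Zfp36l2, which directs the decay of AU-rich mRNAs, had 0.66 ± 0.50, and Btg4 -0.49 ± 0.49. Of 21 kinases and factors upstream of the immediate early genes, limma, edgeR and DESeq2 called 0, and 0 at an unadjusted p under 0.05, with a median of 0.16 under the deposited scaling. After scaling on expressed genes 0 of 16 were called (1 lower at an unadjusted p under 0.05), with a median of -0.08. Map2k6 and Elk1 had 0.51 ± 0.40 and 0.49 ± 0.41, and Map2k3 and Ets1 -0.50 ± 0.47 and -0.26 ± 0.40.

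Heat shock genes, here chaperones and cochaperones with the factors Hsf1 and Hsf2, had another order of libraries than the members. Dissociation is also known to induce some of them, so the list as a whole is no measure of dissociation. Of 16 tested, limma, edgeR and DESeq2 called 0, and 0 at an unadjusted p under 0.05, with a median log2 fold change of 0.23. After scaling on expressed genes 0 of 15 were called (unadjusted p under 0.05 for 1 higher and for 1 lower), with a median of 0.02. In that setting the list's median difference from the Het mean was -0.35, 0.40, 0.16 and -0.02 in KO 1 to KO 4, against -0.09, -0.36, 0.25 and 0.17 in Het 1 to Het 4. KO 4, where the members were highest, lay within the Het range, and KO 2 was above it. Hspa1a, an inducible HSP70 gene named after its values were seen, had 153, 1032, 181 and 254 normalized counts in KO, against 264, 164, 348 and 279 in Het. Its reads cannot be split cleanly from those of its near-identical copy Hspa1b. Dnajb1 and Hspa4, cochaperone and chaperone, had 0.72 ± 0.56 and 0.61 ± 0.60, and Hspb1 and Bag3 -0.75 ± 0.52 and -0.50 ± 0.52 (limma adjusted p from 0.892 to 0.940 for the 4). The part of dissociation in the members' levels was not tested.

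**Figure D5:**
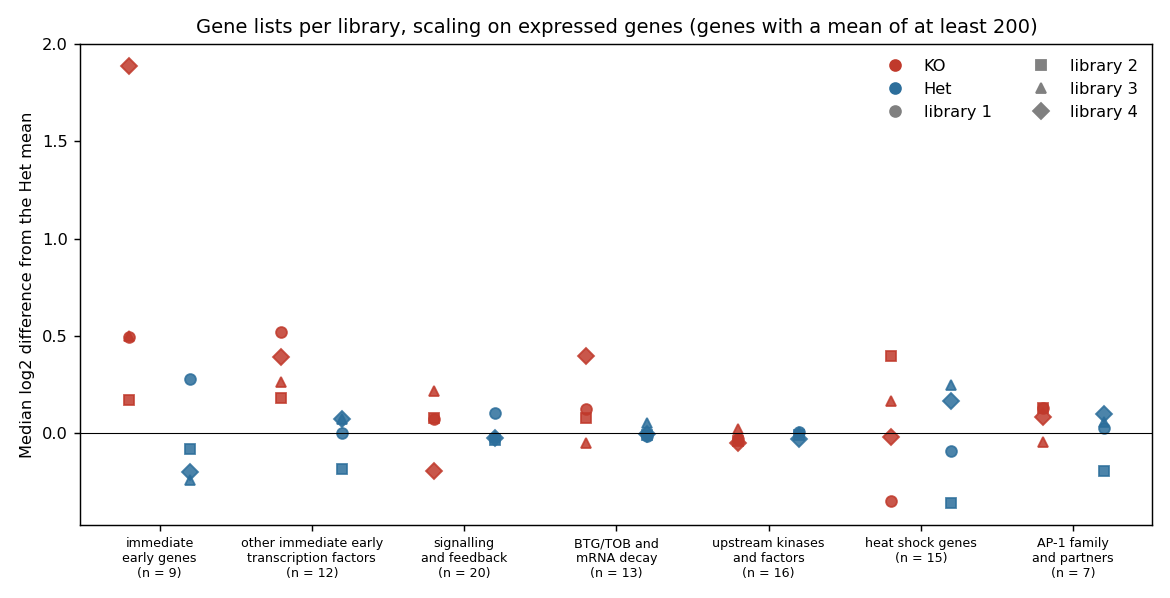
Median log2 difference from the Het mean (vertical axis) of the immediate early genes and the 6 other lists in each library, after scaling on expressed genes and over the genes with a mean of at least 200 (number under each list), KO left of Het. KO 4 (diamond) is at 1.89 for the 9 immediate early genes and at -0.02 for the heat shock genes.

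Markers of other cells summed to far less than those of beta cells. The 5 alpha-cell markers summed to 1325 to 2656 normalized counts in KO, lowest in KO 4, and 1206 to 2810 in Het. On the scale of expressed genes they summed to 1368 to 3098 in KO, with 1965 in KO 4, and 1432 to 2403 in Het. Gcg, the glucagon gene among them, was at 486 to 982 normalized counts in KO and 150 to 517 in Het. The 3 delta-cell markers summed to 527 to 756 in KO and 375 to 678 in Het, and on the scale of expressed genes to 271 to 1296 in KO, with 853 in KO 4, and 431 to 624 in Het. The 6 endothelial markers summed to 123 to 214 normalized counts in KO, with 212 in KO 4, and 175 to 283 in Het. On the scale of expressed genes they were at 63.3 to 367 in KO, with 314 in KO 4, and 150 to 342 in Het. The 7 macrophage and dendritic markers summed to 153 to 193 normalized counts in KO, with 174 in KO 4, and 198 to 251 in Het, lower in every KO library. Scaled on expressed genes these ranges overlapped, at 83.6 to 331 in KO, with 258 in KO 4, and 196 to 294 in Het. The 7 stellate and fibroblast markers summed on that scale to 46.7 to 520 in KO, with 417 in KO 4, and 154 to 355 in Het. The 6 T and NK cell markers found summed there to 17.3 to 202 in KO, with 159 in KO 4, and 66.0 to 163 in Het. The 5 duct markers summed there to 390 to 630 in KO, lowest in KO 4, and 816 to 878 in Het, with no overlap. The part of other cells in the members' levels was not tested, and in bulk libraries fewer cells of a type and less RNA per cell cannot be told apart.

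The genes whose profile over the 8 libraries was most like the members' mean profile were Fam222a, C2cd4b, Klf4, Cc2d2a, Nfkbiz and Klf6. Likeness was the root mean square difference between centred log2 profiles after scaling on expressed genes, over 6564 candidate genes with a mean of at least 200. It ran from 0.16 log2 units for Fam222a to 0.23 for Klf6, against a median of 0.54 over the candidates. Among the members themselves Jun lay closest to that mean profile, at 0.18, and Jund farthest, at 0.79. Klf4, a zinc-finger factor of the early response, had 557, 428, 488 and 1308 scaled counts in KO, against 429, 352, 405 and 384 in Het.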

How the data were processed

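RNA was sequenced from 4 KO and 4 Het libraries of sorted beta cells made, per the labels' protocols, with Takara's SMARTer Stranded kit (version 3, pico input). Per the submitters' processing notes, which give no roles, the build named is mm10 and the tools named are STAR 2.7.3a, HTSeq, DESeq2 1.28.1, UMI-tools and FastQC 0.11.8; the annotation and the counting mode are not given in the sources used here. The deposited signal values are normalized counts, each library having 1 divisor. In each library 100% of values were whole multiples of 1 step (tolerance 0.001 of a step), so whole reads could be recovered. Pairs of replicates differed by more than counting noise. The chi-square per degree of freedom was 29.6 to 79.1 between KO libraries and 3.77 to 12.6 between Het libraries. The fits did not give KO and Het separate spreads.

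KO and Het were compared with limma 3.58.1 under R 4.3.3, using log2(value + 1), for genes with a mean of at least 10, with trend and robust eBayes and genotype as the only term. P-values are two-sided, with Benjamini-Hochberg adjustment over all tested genes. Fold changes are KO over Het on that scale, which understates low genes. As deposited, the median total degrees of freedom were 128988, so genes of like level shared 1 spread and a gene's own spread counted little; on expressed genes they were 11.1. In the second setting TMM factors from the 6697 genes with a mean of at least 200 replaced the size factors, and those genes were tested. edgeR 4.0.16 (quasi-likelihood) and DESeq2 1.42.0 were run on whole reads. Alternatives were pseudocounts, filters, scalings, a replicate block and leaving out libraries. Coordinates are from GENCODE M21 (mm10), counted from 1. The members and lists were chosen with earlier results of these data known. Named with values were all members, list genes called or among the 2 of smallest p in each direction, and the 6 most alike genes; others are marked as chosen after their values were seen. Scripts were tested on simulated counts.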

Additional observations from a re-analysis of the deposited data

Results flagged for a closer look

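In groups of 4 libraries, a library was singled out where its gap to the nearest other, over the group's range, exceeded Dixon's 95% critical value, which chance alone does in about 1 of 20 groups. Of 66 groups looked at, 13 were singled out, 11 of them for KO 4, and the measures share reads, so they do not count separately. After scaling on expressed genes KO 4 stood apart in KO for Fos (13442), Jun (13093), Egr1 (8917) and Dusp1 (1494). As ratios to Jund reads it stood apart for Fos (3.98, against 0.227 to 0.317 in the other KO libraries), Fosb (4.42), Jun (3.88), Egr1 (2.64) and Dusp1 (0.443). Its Fos share of AP-1 reads per kilobase was 37.6% and its Jund share 13.3%. Among Het libraries, Het 1 stood apart for Jun after scaling on expressed genes (5523, against 3105 to 3302) and Het 4 for the ratio of Egr1 to Jund (0.305, against 0.194 to 0.203). No library stood apart in this way for a member under the deposited scaling.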

How the results depend on the processing

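Under the deposited scaling limma called 203 genes in all (198 higher and 5 lower in KO), and none of the 10 members. The total was 688 (404 higher and 284 lower) after scaling on expressed genes, 128 without trend or robust settings, 1862 without KO 1 and KO 2, 12991 without KO 3 and KO 4, and 111 to 384 leaving out 1 library. Members called numbered 1 after scaling on expressed genes, 2 with DESeq2, 2 without KO 1 and KO 2, 9 without KO 3 and KO 4 (the 2 KO libraries kept there have the highest deposited levels of expressed genes), and 0 to 1 leaving out 1 library. In the 6 other lists 1 gene was called, against 7 after scaling on expressed genes, 2 with a pseudocount of 8, 4 with plain library-size scaling, 2 with DESeq2, 14 without KO 1 and KO 2, 94 without KO 3 and KO 4 and 0 to 5 leaving out 1 library. Scaled on expressed genes, the total of 688 became 157, 163, 255 and 301 without Het 1, Het 2, Het 3 and Het 4, 135, 1178, 1114 and 457 without KO 1, KO 2, KO 3 and KO 4, and 243 without KO 3 and KO 4, and the 1 member called became 0 to 3. The sign changed for Junb without KO 1 and KO 2 (-0.069) and for Jund with DESeq2 (0.034), without KO 4 (0.21, within a range of -0.55 to 0.21 leaving out 1 library) and without KO 3 and KO 4 (0.68). It changed, scaled on expressed genes, for Fos without KO 4 (-0.12) and without KO 3 and KO 4 (-0.31). Of 208 fits of members under alternatives to the deposited scaling, 189 kept direction and side of the threshold, 15 gained a call and 4 changed sign; the cause of these changes was not tested. Same-numbered KO and Het libraries correlated at 0.22, -0.05, 0.13 and 0.28 in their deviations (numbers 1 to 4). In 3 of 4 pairs the KO library correlated best with its own number, a hint from the data only. Since number 2 departs and the labels do not say what a number marks, the numbers are not taken to pair the samples. With the replicate block 0 members were called under the deposited scaling, and 3 (Fosb, Egr1 and Btg2) with the block and scaling on expressed genes. Ier3, at 24.4 to 108 normalized counts, is the member that depth limits most.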
